A study of Homo sapiens with 4 samples.

Results

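STAG3, the meiotic form of a cohesin subunit, stood apart from the rest of its complex in a Burkitt lymphoma clone with lowered DLEU1. Its mean signal was 6.48-fold that of the control clone, while the other tested cohesin probe sets had ratios of means between 0.753 and 1.51. The members were all probe sets whose platform annotation names 1 of 10 genes alone, namely STAG3, REC8, STAG1, STAG2, SMC1A, SMC3, RAD21, NIPBL, PDS5A and PDS5B. These 10 of the 19775 genes named alone by a probe set are covered by 34 of the 54613 probe sets on the array, of which 31 were bright enough to be tested. The set was proposed with the rise of STAG3 in this same comparison already known and chosen by these intensities, so the values of the members are a description and carry no p-value.

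RNA was measured on 4 Affymetrix HG-U133 Plus 2.0 arrays, 2 from a DLEU1-downregulated clone and 2 from a wild-type control clone of Raji. Raji is an established cell line from a Burkitt lymphoma, a tumour of B cells, and DLEU1 is a gene that yields a long RNA with no known protein. The downregulated clone was made with TALENs, engineered enzymes that break DNA at a programmed site. The treatment field of the labels names these TALENs for all 4 arrays, the controls included. Both clones were grown in the same serum-containing medium, each genotype is 1 clone, and the labels do not say whether the duplicates were separate cultures, so p-values measure only the spread between arrays, which may be technical. The arrays measured bulk RNA, in which more expressing cells and more RNA per cell cannot be told apart.

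Cohesin is a ring that holds sister chromatids together and extrudes chromatin loops. Its core is formed by SMC1A, SMC3, the kleisin RAD21 and either STAG1 or STAG2, NIPBL loads it onto DNA, and PDS5A and PDS5B regulate its release and its acetylation. In meiosis REC8 takes the place of RAD21 and STAG3 that of STAG1 or STAG2, and STAG3 is normally expressed mainly in germ cells. In mouse cells the repressor E2F6 is known to silence Stag3 and Smc1b outside the germ line.

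Because the results turn on how STAG3 differs from its mitotic paralogues, the 250 bases before their first listed transcription start are shown. They are from RefSeq, build GRCh38.p14, read 5′ to 3′ on the strand of the gene, and capitals mark the E2F core TCCCGC on either strand. No E-box CACGTG lies in the windows printed.
STAG3 (chr7:100177474-100177723, plus strand): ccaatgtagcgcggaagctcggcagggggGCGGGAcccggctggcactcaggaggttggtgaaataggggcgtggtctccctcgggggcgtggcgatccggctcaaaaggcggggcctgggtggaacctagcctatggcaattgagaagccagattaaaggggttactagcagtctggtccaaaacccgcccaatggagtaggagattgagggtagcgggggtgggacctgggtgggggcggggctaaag
STAG1 (chr3:136752379-136752628, minus strand): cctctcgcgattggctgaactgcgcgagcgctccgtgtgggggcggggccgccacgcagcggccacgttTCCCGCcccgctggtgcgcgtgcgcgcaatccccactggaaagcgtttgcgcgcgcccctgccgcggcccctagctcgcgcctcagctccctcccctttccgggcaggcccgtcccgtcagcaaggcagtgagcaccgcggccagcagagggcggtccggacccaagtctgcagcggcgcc
STAG2 (chrX:123960310-123960559, plus strand): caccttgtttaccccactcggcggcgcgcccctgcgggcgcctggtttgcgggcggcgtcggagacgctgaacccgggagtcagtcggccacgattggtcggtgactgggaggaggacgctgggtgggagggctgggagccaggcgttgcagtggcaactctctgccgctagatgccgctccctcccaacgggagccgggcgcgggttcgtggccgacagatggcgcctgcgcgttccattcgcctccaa
The STAG3 window holds 1 E2F core, which begins 221 bases before the start, and 14 CpG dinucleotides, against a median of 11 over all promoters. The STAG1 window holds 1 E2F core and 34 CpG, and the STAG2 window holds 0 E2F cores and 29 CpG. The first starts do not stand for all listed starts. The other 2 STAG2 starts each have 1 E2F core, and the second STAG3 start has 1 E2F core and 1 E-box, the sole E-box among the member starts. A promoter was listed for 9 of the 10 genes, with 13 starts in all, and 8 of these starts have at least 1 E2F core in the same length. Over all 35116 listed promoters 23.5% hold the E2F core and 6.34% the E-box, with both strands searched and the motifs allowed to overlap. RAD21 was the gene with no entry. A match of letters is a description of the sequence and not evidence that a factor binds there.

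Intensities were used as deposited and turned into log2(intensity + 16) for differences, which are always the downregulated arrays minus the control arrays. The arrays were not on a common scale, since their 2% trimmed mean intensities were 171.9 and 196.8 on the downregulated arrays and 163.4 and 131.4 on the control arrays. The median log2 difference over all 32768 tested probe sets was 0.16 as deposited and 0.01 after quantile normalization. When the tested probe sets were split by brightness into 5 bins of like size, the brightest bin had a median of 0.35 as deposited and 0.01 after quantile normalization. A difference of about 0.3 in a bright probe set is therefore near the middle of all bright probe sets, and both scales are given below. DLEU1 itself read 523.7 and 616.9 on the downregulated arrays, against 1363.4 and 1023.8 on the control arrays. Its log2 difference was -1.04 ± 0.24 (SE), with a limma adjusted p = 0.00032. The call was lost without replicate 1 of the downregulated clone (adjusted p = 0.221) and without its replicate 2 (adjusted p = 0.141), where the lone array was taken to vary like the others. An exact permutation test of 2 against 2 arrays can give no two-sided p below 0.333. Of 7 B-cell marker genes 6 had a probe set naming them alone, and these read between 583.6 and 8376.2 on every array. The highest reading of any T-cell or myeloid marker was 20, of any epithelial marker 33.8, and of any fibroblast marker 121.2.

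STAG3 was measured by 1 probe set. It read 968.5 and 1345.2 on the downregulated arrays, against 196.5 and 160.4 on the control arrays. Both downregulated arrays lay far above both control arrays. The means were 1157 ± 266 and 178.4 ± 25.5 (SD, n = 2 arrays each), and the log2 difference was 2.58 ± 0.26 (SE). Quantile normalization gave 904.7 and 1109 on the downregulated arrays and 195.5 and 200.6 on the control arrays, a log2 difference of 2.25. Across the alternatives for scale, added constant and left-out array the log2 difference ran between 2.25 and 2.81, so its direction held in all of them. Ranked by log2 difference, STAG3 was number 7 of 13284 tested genes; this is the value for which it was chosen.

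**Figure D1:**
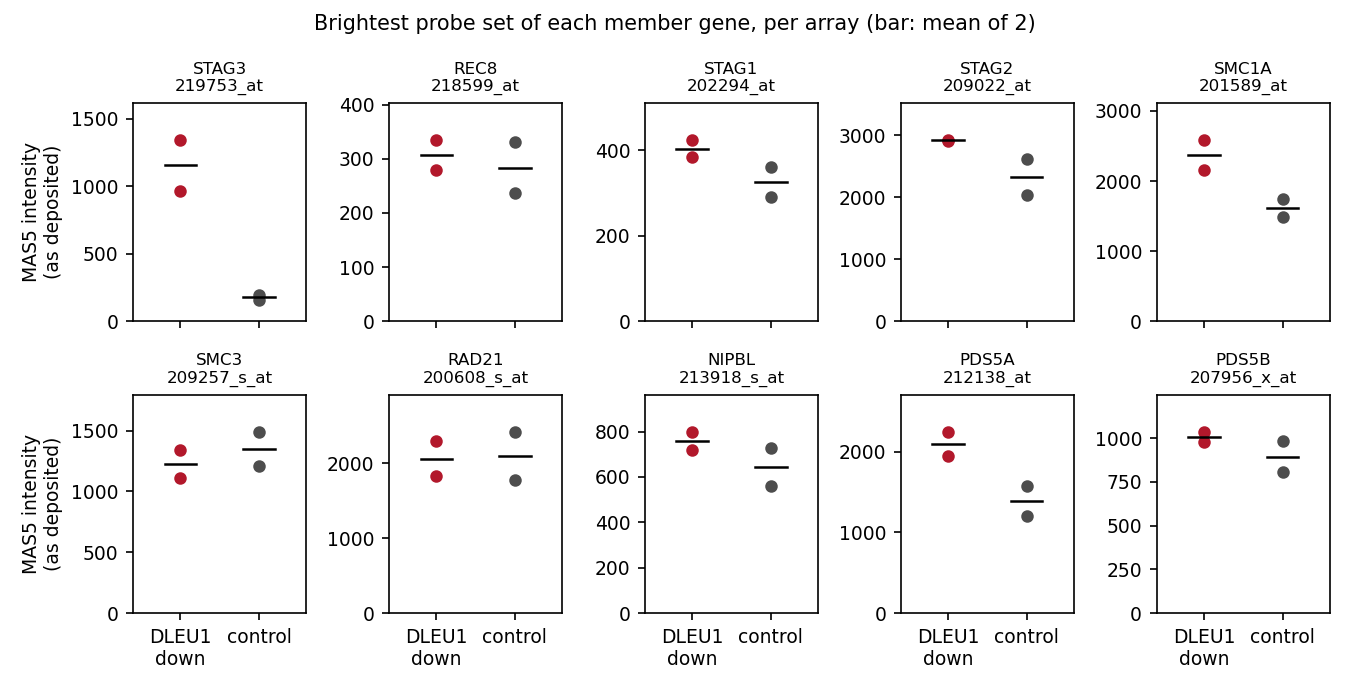
MAS5 intensity (vertical axis, linear, from 0, a scale of its own in each panel) of the brightest probe set of each of the 10 genes, with the DLEU1-downregulated arrays on the left, the control arrays on the right, 1 point per array and a bar at the mean of 2. STAG3 reads 968.5 and 1345.2 on the downregulated arrays and 196.5 and 160.4 on the control arrays, while the points of REC8, SMC3, RAD21, NIPBL and PDS5B overlap between the clones.

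REC8, the meiotic kleisin and the other meiotic member, had no difference whose sign held across the scales. It read 278.6 and 335.3 in its brighter probe set on the downregulated arrays, against 330.5 and 237.2 on the control arrays. The groups overlapped as deposited, with a log2 difference of 0.12. After quantile normalization the readings were 268.2 and 278 on the downregulated arrays, below 332.1 and 297.9 on the control arrays, and the log2 difference was -0.19. Its second probe set was too dim to be tested, at 8.7 and 1 on the downregulated arrays against 17.3 and 1.1 on the control arrays. The meiotic ring genes SMC1B and RAD21L1, which replace SMC1A and RAD21 in germ cells and are not members, were also below the filter. SMC1B read 7.6 and 6.8 on the downregulated arrays, against 6.2 and 7.2 on the control arrays. RAD21L1 read 4.5 and 1.4 on the downregulated arrays and 9.3 and 2.5 on the control arrays.

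For the mitotic paralogues STAG1 and STAG2, the size and sign of the difference depended on the probe set and the scale. STAG2, which is often mutated in cancer, read 2928.5 and 2915.6 in its brightest probe set on the downregulated arrays, against 2612 and 2035.3 on the control arrays. Its groups did not overlap, but the log2 difference of 0.34 was close to the 0.35 of bright probe sets in general, and it was -0.04 after quantile normalization. The other STAG2 probe sets had log2 differences of -0.02 and 0.20 as deposited, with overlapping groups. After quantile normalization these were -0.37, with no overlap, and -0.12, with overlap. The brightest STAG1 probe set read 382.9 and 424.1 on the downregulated arrays and 359.3 and 291.1 on the control arrays, a log2 difference of 0.30, or -0.03 after quantile normalization. The next brightest STAG1 probe set read 224 and 251.7 on the downregulated arrays, against 292 and 244 on the control arrays, with a log2 difference of -0.16 as deposited and -0.46 after quantile normalization. The probe sets of STAG1 thus did not run the same way.

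A comparison of 2 probe sets on the same array does not depend on the scale of the array. Relative to the brightest STAG2 probe set, STAG3 was 5.07-fold higher in the downregulated clone, at 2.1 and 2.58 log2 units above the control mean on the 2 downregulated arrays, while the control arrays lay -0.03 and 0.03 from it. Relative to the brightest STAG1 probe set it was 5.16-fold higher. It lay at 2.2 and 2.53 log2 units on the downregulated arrays, against -0.01 and 0.01 on the control arrays. Such a ratio shows unequal change of the 2 probe sets and not which of them changed.

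**Figure D2:**
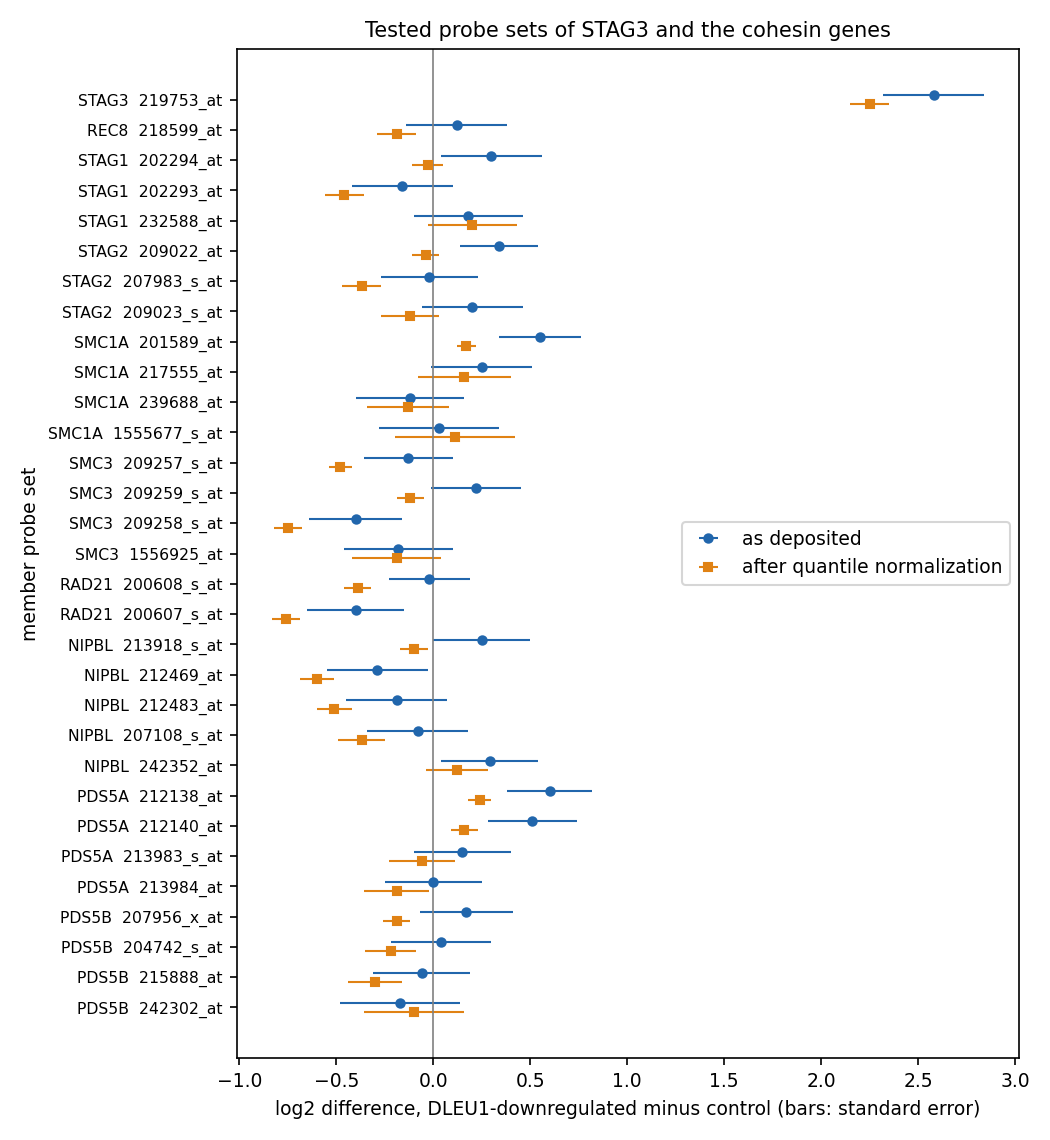
Log2 difference of each tested member probe set, DLEU1-downregulated minus control (horizontal axis), as deposited (circles) and after quantile normalization (squares), with bars of 1 standard error. STAG3 lies at 2.58 and 2.25, and the other 30 probe sets lie between -0.40 and 0.60 as deposited and between -0.76 and 0.24 after quantile normalization.

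The brightest SMC1A probe set read higher in the downregulated clone, while the SMC3 probe sets lay on both sides of 0 as deposited. SMC1A, an ATPase arm of the ring, read 2151.7 and 2589.2 in its brightest probe set on the downregulated arrays, against 1741 and 1486.3 on the control arrays. The groups did not overlap, with means of 2370 ± 309 and 1614 ± 180 (SD, n = 2 arrays each) and a log2 difference of 0.55 as deposited and 0.17 after quantile normalization. The 3 dimmer SMC1A probe sets overlapped between the clones as deposited, with log2 differences of -0.12 to 0.25 (-0.13 to 0.16 after quantile normalization). SMC3, the partner ATPase that is acetylated to lock the ring, read 1110.5 and 1340.6 in its brightest probe set on the downregulated arrays, against 1491.6 and 1205.4 on the control arrays. The log2 difference was -0.13, or -0.48 after quantile normalization, and the groups overlapped as deposited. A dimmer SMC3 probe set read 601.8 and 700.1 on the downregulated arrays, below 952.8 and 775.6 on the control arrays, with a log2 difference of -0.40, or -0.75 after quantile normalization. Another SMC3 probe set had 0.22 as deposited and -0.12 after quantile normalization, so the 3 bright SMC3 probe sets agreed in direction after quantile normalization but not as deposited. Relative to the brightest SMC3 probe set on the same array, the brightest SMC1A probe set was 1.61-fold higher in the downregulated clone. It lay at 0.69 log2 units above the control mean on each downregulated array, against -0.04 and 0.04 on the control arrays. The ratio depends on the SMC3 probe set taken, since another, at 0.22 as deposited, lay closer to the 0.55 of SMC1A.

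RAD21, the mitotic kleisin that separase cuts at anaphase, had its brightest probe set at 1823.8 and 2291.7 on the downregulated arrays, against 2417.5 and 1769.6 on the control arrays. The groups overlapped as deposited and the log2 difference was -0.02, or -0.39 after quantile normalization. Its dimmer probe set read 565.6 and 707.5 on the downregulated arrays, below 920.9 and 766.6 on the control arrays, with -0.40 as deposited and -0.76 after quantile normalization. In the downregulated clone, relative to the brightest RAD21 probe set, that of SMC1A was 1.48-fold higher and that of STAG2 1.28-fold higher. For STAG2 the downregulated arrays were 0.53 and 0.19 log2 units above the control mean, so the 2 arrays differed by 0.34 between themselves in a ratio whose mean shift was 0.36.

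The loader NIPBL had 5 tested probe sets. The brightest read 718.9 and 799.5 on the downregulated arrays, against 726.7 and 558.5 on the control arrays, and the groups overlapped as deposited. Its log2 difference was 0.25, or -0.10 after quantile normalization. The other 4 ranged from -0.29 to 0.29 as deposited, and from -0.60 to 0.12 after quantile normalization. Direction within NIPBL therefore depended on the probe set as well as on the scale.

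PDS5A, one of the paired regulators, read higher in the downregulated clone in its bright probe sets. It had intensities of 1940.4 and 2247.4 in its brightest probe set on the downregulated arrays, against 1571.5 and 1197.4 on the control arrays. The groups did not overlap, and the log2 difference was 0.60, or 0.24 after quantile normalization. A second bright PDS5A probe set read 1119.6 and 1365.2 on the downregulated arrays and 917.1 and 816.2 on the control arrays, with 0.51 as deposited and 0.16 after quantile normalization. The median of all probe sets in the brightest bin was 0.35 as deposited and 0.01 after quantile normalization. The 2 dim PDS5A probe sets lay at 0.00 and 0.15 as deposited, and at -0.19 and -0.06 after quantile normalization. For the first of these the downregulated arrays then lay below the control arrays with no overlap. PDS5B, in a brightest probe set prone to cross-hybridisation, read 977.5 and 1037.8 on the downregulated arrays, against 986.1 and 804.6 on the control arrays. Its 4 tested probe sets overlapped between the clones as deposited, with log2 differences of -0.17 to 0.17 (-0.30 to -0.10 after quantile normalization), and 2 more were too dim to be tested. Relative to the brightest PDS5B probe set on the same array, the brightest PDS5A probe set was 1.35-fold higher in the downregulated clone. The shift was 0.37 and 0.49 log2 units on the 2 downregulated arrays.

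Counted over the members, 3 of 31 tested probe sets (9.68%) passed an adjusted p of 0.05 in limma on the higher side as deposited, 1 each of STAG3, SMC1A and PDS5A, and 0 passed on the lower side (4 higher and 0 lower at an unadjusted p under 0.05). Over all tested probe sets 17.2% passed higher and 5.11% lower. After quantile normalization 3 member probe sets passed higher, again 1 each of STAG3, SMC1A and PDS5A, and 9 passed lower, against 17% and 16.7% of all tested probe sets. The 9 lower ones were 1 of STAG1, 1 of STAG2, 2 of SMC3, 2 of RAD21 and 3 of NIPBL. Without control replicate 2, and without either array of the downregulated clone, 1 member probe set passed as deposited. Groups did not overlap in 7 probe sets on the higher side and 2 on the lower side, against 40.8% and 17.9% of all tested probe sets. After quantile normalization these numbers were 5 and 17, against 33.5% and 32.5%. Since the members were chosen with this comparison known, nothing is read from these counts.

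**Figure D3:**
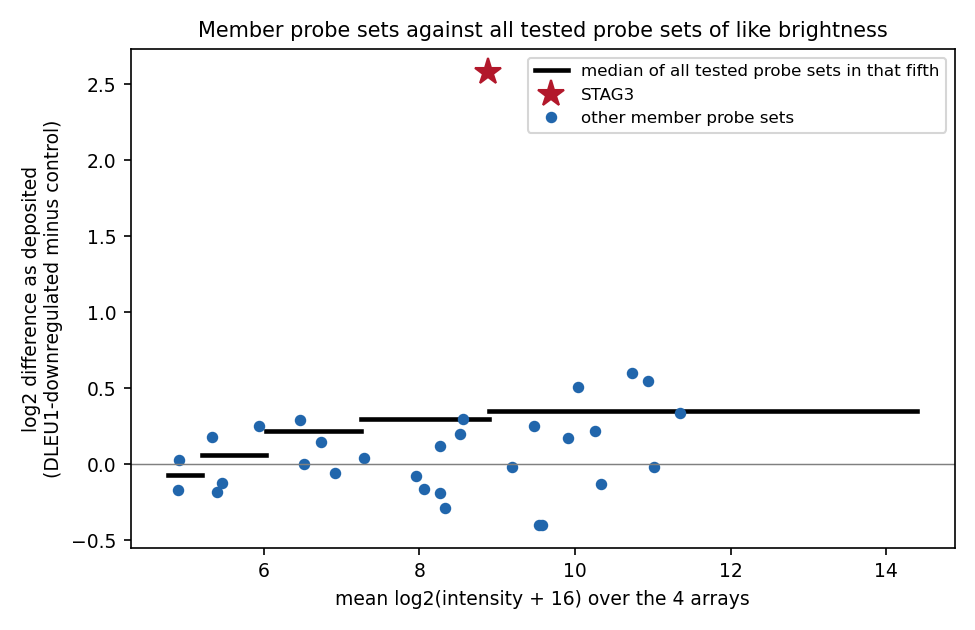
Log2 difference as deposited (vertical axis, DLEU1-downregulated minus control) against the mean log2(intensity + 16) over 4 arrays (horizontal axis) for the 31 tested member probe sets, with black bars for the median of all tested probe sets in each of 5 bins of brightness. The bars climb to 0.35 in the brightest bin, which holds 12 member probe sets, and STAG3 at 2.58 is far from them.

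The median log2 difference over the members was 0.04 as deposited and -0.13 after quantile normalization, against 0.16 and 0.01 over all tested probe sets. Without STAG3 it was 0.04 and -0.16. Of those 30 probe sets, 17 were positive and 13 negative as deposited, and 7 were positive and 23 negative after quantile normalization.

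Among regulators of cohesin outside the member set few genes passed the test as deposited. The list of 24 genes also held the meiotic ring genes SMC1B and RAD21L1, which are in the meiosis list too and were below the filter. The other 22 were tested by their brightest probe set. Of these, 3 rose and 0 fell as deposited (3 and 2 at an unadjusted p under 0.05 in limma), against 20.3% and 5.74% of all 13284 tested genes. After quantile normalization 2 of the 22 rose and 11 fell, against 20.6% and 20.6% of genes. The list's median log2 difference was 0.10 as deposited and -0.25 after quantile normalization, against 0.19 and -0.01 over all genes. PPP2R1A, the scaffold of the phosphatase that shugoshins recruit to protect cohesin, read 401.3 and 481.2 on the downregulated arrays and 304.7 and 199.1 on the control arrays (log2 difference 0.79, limma adjusted p = 0.0144). SGO1, the mitotic shugoshin, rose by 0.72 (limma adjusted p = 0.0261), but missed the threshold after quantile normalization (adjusted p = 0.0608), and its dimmer probe set had a log2 difference of -0.36, not past the threshold. DSCC1, part of the clamp loader that aids cohesion at forks, rose by 0.68 (limma adjusted p = 0.0270). All 3 calls were lost without control replicate 2, where limma called 0 genes higher and 1 lower, and limma called 0 genes of the list without replicate 1 or without replicate 2 of the downregulated clone (2 and 1 at an unadjusted p under 0.05). Named for their roles after their values were seen, the release factor WAPL had a log2 difference of 0.30 (-0.08 after quantile normalization), the NIPBL partner MAU2 -0.11 (-0.44) and the loop anchor CTCF -0.02 (-0.36).

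Genes of meiosis other than STAG3 were mostly too dim to be tested. Of 47 listed, 43 had a probe set naming them alone, and 18 were tested, of which 2 rose and 3 fell as deposited, against 20.3% and 5.74% of all tested genes. After quantile normalization 2 rose and 6 fell, against 20.6% and 20.6%. The 25 that were not tested had mean intensities up to 11.5. TRIP13, an ATPase that removes HORMA proteins and also serves the mitotic checkpoint, read 880.2 and 1075.8 on the downregulated arrays and 514 and 406.9 on the control arrays (log2 difference 1.06, limma adjusted p = 0.000296). MLH3, a mismatch repair protein of meiotic crossovers, rose by 0.78 in its brightest probe set (limma adjusted p = 0.0156), and its other 2 did not pass. ASZ1, a germ-cell protein of the piRNA pathway, read 4.4 and 10.1 on the downregulated arrays and 43.8 and 39 on the control arrays (log2 difference -1.31, limma adjusted p = 0.000129). As ASZ1 was near the floor on the downregulated arrays, its log2 difference depended on the added constant and was -2.06 with 4 and -0.57 with 64. BOLL, a germ-cell RNA-binding protein, fell by 0.85 (limma adjusted p = 0.0241) and MND1, a strand-invasion cofactor, by 0.62 (limma adjusted p = 0.0452). The dim filter used the mean over all 4 arrays, with a cutoff near an intensity of 11.35. On the downregulated arrays alone ASZ1 and BOLL averaged 7.25 and 10, so only their control readings brought them into the test. Their p-values are therefore no support for a fall. Of 8 genes tested with the 60th percentile filter, 2 rose and 1 fell. Without replicate 1 of the downregulated clone 0 genes of the list rose and 1 fell, and the same counts were found without its replicate 2. Without control replicate 2, 1 rose and 2 fell, and without control replicate 1 the split was 5 and 1. The BOLL call was lost whichever array was left out (adjusted p = 0.0503 to 0.43), and the MND1 call held only without control replicate 2 (adjusted p = 0.0204). Among 5 germ-cell markers (DDX4, DAZL, SYCP1, SYCP3 and MAEL), all in the same list, 0 were bright enough to be tested, and no reading exceeded 22.2. Their summed intensity was 19.1 and 29.5 on the downregulated arrays, against 41 and 56.9 on the control arrays. SYCP1 read 1.5 and 6.5 on the downregulated arrays against 15.9 and 22.2 on the control arrays. MAEL read 1.1 and 19.8 against 22.1 and 2.6. As all 5 were below the dim filter, nothing is read from the sum.

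Of 4 repressors of germ-line genes, E2F6, L3MBTL2, MGA and PCGF6, only E2F6 passed as deposited. That is 1 higher and 0 lower, against 20.3% and 5.74% of all tested genes. After quantile normalization 1 rose and 1 fell, against 20.6% and 20.6%, so nothing is read from the count. E2F6, measured by 1 probe set, read 512.3 and 554.9 on the downregulated arrays, against 242 and 184.2 on the control arrays. Its log2 difference was 1.27 as deposited (limma adjusted p = 2.48e-05), and with quantile normalization it was 0.96 (adjusted p = 6.58e-05), but the call was lost without replicate 1 (adjusted p = 0.0573) or replicate 2 (adjusted p = 0.121) of the downregulated clone. The E2F6 signal thus rose in the same clone as that of STAG3, and any link between them was not tested. MGA had a log2 difference of -0.10 as deposited (limma adjusted p = 0.826), and fell by 0.43 after quantile normalization (adjusted p = 0.00541) in its brightest probe set, though not in its 2 dimmer tested ones.

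Condensin and the SMC5/6 complex are built on the same kind of SMC arms. A list of their genes also held SMCHD1, an SMC protein of neither complex. Of the 16 tested genes of this list, 3 rose and 1 fell as deposited, against 20.3% and 5.74% of all tested genes. After quantile normalization the counts were 3 and 5, against 20.6% and 20.6%. The list's median log2 difference was 0.18 as deposited and -0.16 after quantile normalization. NCAPG2, a condensin II subunit, read 743.1 and 660.5 on the downregulated arrays and 400.7 and 358 on the control arrays (log2 difference 0.86, limma adjusted p = 0.00577). NSMCE4A rose by 0.75 and SMC5 by 0.68 in their brightest probe sets, both of the SMC5/6 complex. A dimmer SMC5 probe set (0.47) did not pass, nor did those of NSMCE4A at 0.51 and 0.40, while another at 0.69 did. NCAPG, a condensin I subunit, read 1077.8 and 1202.3 on the downregulated arrays and 2011.2 and 1619.2 on the control arrays (log2 difference -0.66, limma adjusted p = 0.0202). Its dimmer probe set had -0.43 as deposited, not past the threshold (limma adjusted p = 0.196), and passed at -0.78 after quantile normalization. Limma called 0 of these genes without replicate 1 or without replicate 2 of the downregulated clone (1 and 1 at an unadjusted p under 0.05), and without control replicate 2 it called 2.

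STAG3 lies on chromosome 7. Of the 15 nearest tested genes on each side in the RefSeq order, 12 of 30 rose and 2 fell as deposited, and 11 rose and 3 fell after quantile normalization. Among all 636 tested genes of chromosome 7, 45% rose and 4.56% fell as deposited, and 43.7% rose and 9.43% fell after quantile normalization. Over all tested genes of the array 20.3% rose and 5.74% fell as deposited, and 20.6% rose and 20.6% fell after quantile normalization. Chromosome 7 as a whole was thus called higher more often than the array on both scales, and the cause was not tested. The calls of the neighbours numbered 2 without either array of the downregulated clone and 5 without control replicate 2. MCM7, a subunit of the replicative helicase, read 3454.1 and 3956 on the downregulated arrays and 1931.7 and 1430.2 on the control arrays (log2 difference 1.15, limma adjusted p = 8.51e-07). COPS6, a subunit of the COP9 signalosome, rose by 1.00, MEPCE, which caps the small nuclear RNA 7SK, by 0.95 and ZKSCAN1, a zinc finger protein, by 0.90. TRIM4, a ubiquitin ligase, had a log2 difference of -1.31 (limma adjusted p = 7.97e-06) in a brightest probe set prone to cross-hybridisation. Its other 3, at 0.33, 0.36 and -0.09 as deposited, did not pass, so the TRIM4 probe sets did not run the same way. The neighbours' differences ran from -1.31 to 1.32, and STAG3 at 2.58 was outside that range.

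**Figure D4:**
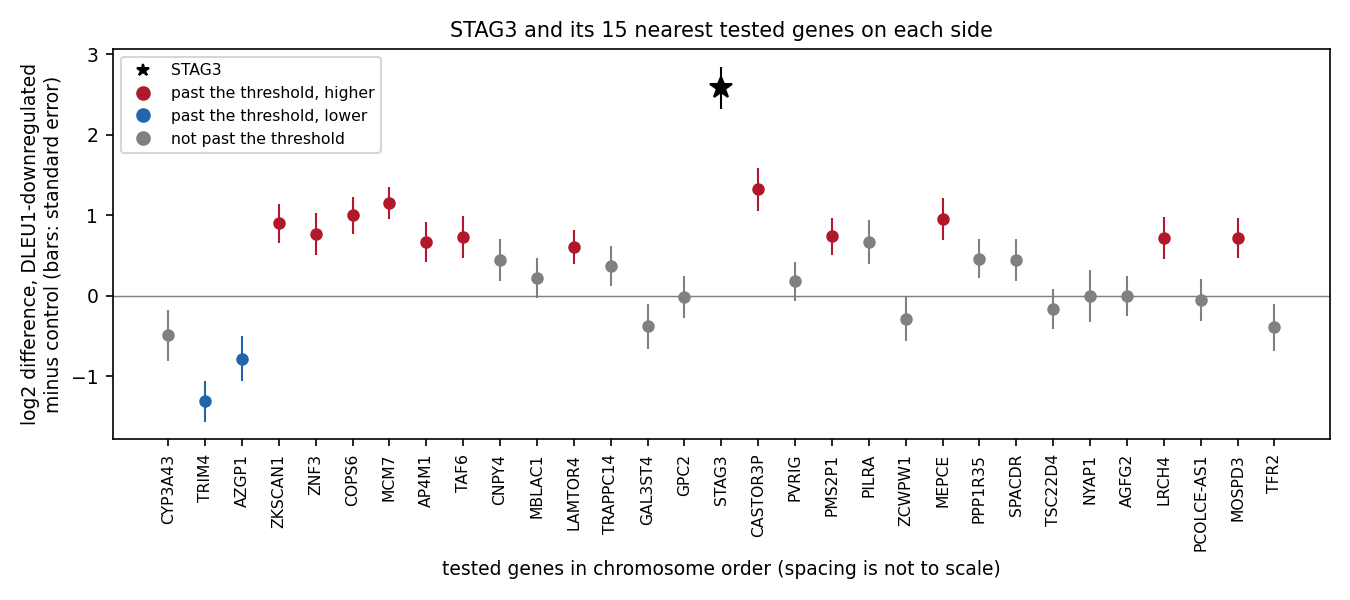
Log2 difference as deposited (vertical axis, DLEU1-downregulated minus control, bars of 1 standard error) of STAG3 (star) and its 15 nearest tested genes on each side, in chromosome order but not to scale. Neighbours past an adjusted p of 0.05 are red where higher (12 of 30) and blue where lower (2 of 30), and STAG3 at 2.58 exceeds CASTOR3P at 1.32.

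The immediate neighbours differed. GPC2, a glypican gene on the near side, read 52.8 and 35.5 on the downregulated arrays and 47.3 and 41.9 on the control arrays, with a log2 difference of -0.02 (limma adjusted p = 0.964), which turned to 0.02 after median centring. CASTOR3P, a transcribed pseudogene that overlaps STAG3 in the reference, read 52.2 and 61.7 on the downregulated arrays and 4.7 and 25.1 on the control arrays (log2 difference 1.32, limma adjusted p = 3.53e-05). With 1 control array at 4.7, this value dropped to 0.82 when control replicate 1 was left out, was 1.81 when control replicate 2 was, and 1.93 or 0.63 with an added constant of 4 or 64. Its dimmer probe set read 16.6 and 17.8 on the downregulated arrays and 10.5 and 15.8 on the control arrays (log2 difference 0.19, adjusted p = 0.713). PVRIG also overlaps STAG3 in the reference, and, with its value known when it was picked for this, had a log2 difference of 0.18 as deposited (limma adjusted p = 0.648), which turned to -0.18 after quantile normalization (adjusted p = 0.0453). The array probes of overlapping genes can share transcripts, so these readings may not be separate from that of STAG3. Of the partial STAG3 copies elsewhere on chromosome 7, STAG3L3 read 105 and 96.2 on the downregulated arrays and 62.7 and 41 on the control arrays (log2 difference 0.80, limma adjusted p = 0.0115). The STAG3L3 call was lost without control replicate 2 and without either array of the downregulated clone. STAG3L4 had a log2 difference of 0.25 (adjusted p = 0.536), and STAG3L1 and STAG3L2 had no probe set naming them alone. Cross-hybridisation between STAG3 and its copies was not tested.

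Over the 4 arrays, the genes whose log2 profile, centred on its mean, lay closest to that of STAG3 were CTTN, an actin organiser (root mean square distance 0.052), PLXNA1, a semaphorin receptor (0.091), IFIT3, an interferon-induced gene (0.122), FCRL4, an Fc receptor-like protein of memory B cells (0.139), and DOCK4, a guanine nucleotide exchange factor (0.149). With 2 arrays in each clone, this measure mostly finds genes with a like difference. The log2 differences were 2.37 to 2.66 in the brightest probe sets of these genes, and smaller in their other tested probe sets. That of PLXNA1 lay at 0.10 as deposited and -0.10 after quantile normalization, and did not pass on either scale. Dimmer probe sets of CTTN at 0.30 and of DOCK4 at 0.62 did not pass either. The remaining tested ones, of CTTN, IFIT3, FCRL4 and DOCK4, passed on the higher side as deposited, at 1.47 to 2.24.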

How the data were processed

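Expression was measured in 2 DLEU1-downregulated and 2 control samples of Raji. The authors deposited MAS5 signal intensity on a linear scale, per the submitters' processing notes; the version, scaling target and detection calls are not given in the sources used here. Log2(intensity + 16) was tested with limma 3.58.1 in R 4.3.3 (group as the only term, eBayes with an intensity trend, Benjamini-Hochberg over all probe sets tested, threshold 0.05). Control probe sets were left out, as were 21845 dim probe sets under the 40th percentile of mean log2 value, which left 32768. The number of arrays limits the precision, and limma's prior degrees of freedom were infinite, so that probe sets of like brightness shared 1 spread. The code was tested on simulated data. Symbols came from the platform annotation, in which 41091 probe sets carry 1 symbol, 1801 several and 11721 none, and 41037 of the first were updated through RefSeq. The files name no genome build, so for the neighbours of STAG3 only chromosome, gene order and overlap were taken from RefSeq. The promoter windows and starts were also from RefSeq, build GRCh38.p14. A gene outside the member set was represented by its brightest probe set.

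The members and lists were chosen with earlier results of these data known. Named genes were all members, DLEU1, up to 6 genes per list with the smallest p past the threshold, the nearest tested neighbours of STAG3, and the 5 closest profiles. Promoter motifs were chosen with the results known. Alternatives were other added constants and dim filters, quantile normalization, median centring, a common trimmed mean, no trend, the replicate number as a term, each array left out, and no _x_at probe sets.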

Additional observations from a re-analysis of the deposited data

How the results depend on the processing

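The direction of STAG3 held under all alternatives run, but most member counts moved with the scale. Against 3 member probe sets past the threshold there were 12 after quantile normalization, 12 with a common trimmed mean, 7 with median centring, and 1 each with no dim filter, without the trend and with the replicate block. Over all probe sets the 7293 calls became 11072, 11394 and 12902 with these 3 scalings, 4395 with no filter and 1901 with the block. Cohesin regulators (3) gave 13, 13 and 7, then 1 with no filter. Meiosis genes (5) gave 8, 8 and 8, then 2 with no filter and 3 with the 60th percentile filter. Condensin and SMC5/6 genes (4) gave 8 after quantile normalization and 8 with the trimmed mean, then 2 with no filter, and STAG3 neighbours (14) gave 8 with no filter. With the replicate block limma called 0 regulators (1 at an unadjusted p under 0.05), 1 meiosis gene, 0 condensin and SMC5/6 genes (0 unadjusted) and 2 neighbours, and the DLEU1 difference stayed at -1.04 with adjusted p = 0.162. The labels give no shared origin for equal numbers, and deviations of same-numbered arrays correlated at -0.05. Only 2 arrays per clone went into this value, which cannot show whether same-numbered arrays shared a culture or batch. Leaving out each array gave 1062 to 8501 calls in all, 1 to 3 members, 0 to 3 regulators (limma called 0 regulators and 0 condensin and SMC5/6 genes without replicate 1 of the downregulated clone, with 2 and 1 at an unadjusted p under 0.05, and 0 and 0 without its replicate 2, with 1 and 1), 1 to 6 meiosis genes, 0 to 3 condensin and SMC5/6 genes, 2 to 14 neighbours, and -1.24 to -0.83 for DLEU1. GPC2 changed sign from -0.02 to 0.02 with median centring, 0.04 without control replicate 1 and 0.18 without replicate 2 of the downregulated clone, within -0.23 to 0.18 over the left-out arrays. The cause of these shifts was not tested.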
